A study of Mus musculus with 8 samples.

Results

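Il10, Il10ra and Il10rb, which encode interleukin 10 (IL-10) and the chains of its receptor, were followed in cultured mouse peritoneal macrophages given nicotine, lipopolysaccharide (LPS) or both. They were picked by symbol from the expression table, and all 3 were found among 24339 genes. The cells came from C57BL/6 mice that either lacked the α7 nicotinic acetylcholine receptor (genotype α7nAChR-/-, called knockout here, targeted gene Chrna7) or were wild type. Cells of each genotype received nicotine+LPS, LPS alone, nicotine alone or vehicle. Nicotine was given at 10 µM, or its vehicle, for 15 min, and LPS at 100 ng/ml, or its vehicle, followed for 4 h. Each of the 8 combinations of genotype and treatment was sequenced as 1 library, so no group had a replicate. The labels give neither age nor number of mice, and how many cell preparations stand behind each genotype is not recorded, so preparation and genotype cannot be told apart. Cells had been plated overnight and washed before treatment, with no sort.

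IL-10 is a secreted cytokine that restrains the inflammatory output of macrophages, and macrophages exposed to LPS are themselves a source of it. It binds Il10ra, the ligand-binding chain found mainly on leukocytes, which then pairs with Il10rb, a broadly expressed chain that also serves other cytokines of the family. The kinases Jak1, bound to Il10ra, and Tyk2, bound to Il10rb, then activate the transcription factor Stat3, whose targets include the feedback inhibitor Socs3. In this design the question is how nicotine alters the expression of the ligand and of its receptor, and whether Chrna7 is needed for that.

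Levels were FPKM, fragments scaled by transcript length and library size, and were comparable between genes per length. Changes were estimated on log2(FPKM + 1), a scale that understates changes of low genes. Each treatment was read in 2 libraries, 1 per genotype, and the spread was the amount by which treatment effects differed between genotypes (limma, 3 residual degrees of freedom, 10447 genes averaging 1 FPKM or more, Benjamini-Hochberg adjusted p below 0.05). The p-values therefore describe spread among 8 libraries, which may be technical. Chrna7 was listed at 0 FPKM in all 8 libraries, so it did not check the genotype labels. The housekeeping gene Gapdh was listed at 1.34 to 8.90 FPKM, so some low entries may be estimates that failed. The summed FPKM of a library ranged from 413052 to 854016 and was highest with LPS alone, and quantile scaling, which makes the distributions of all libraries equal, gave a median LPS change over all genes of -0.07 (log2), against 0.08 as deposited, and a median difference between the nicotine effects with and without LPS of -0.01, against -0.11 as deposited. Macrophage markers were abundant, with Adgre1 at 289 to 421 FPKM and Lyz2 at 17576 to 32448 FPKM, and all 8 macrophage markers were detected. With nicotine under LPS 3 of the 8 fell, Fcgr1 (-4.51), Mertk (-2.33) and Cd14 (-1.36), and Csf1r rose (0.48), Mertk and Cd14 being named after their values were seen. Over all genes tested 28.6% fell and 26.9% rose in that comparison. Markers of other cells were present at lower levels. The sum over 8 mast cell markers was 160.1 to 756 FPKM and that over 7 of 8 B cell markers 190.4 to 403 FPKM. Sums over 7 of 8 T cell markers, 7 of 8 neutrophil markers and 7 dendritic cell markers were 8.29 to 18.4, 22.9 to 175 and 15.7 to 124 FPKM. None of the listed markers was at 0 in every library.

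The ligand gene Il10 (chromosome 1, 131019845 to 131024974, plus strand, GRCm38) was low without LPS, at 2.53 FPKM or less, and at 29.0 FPKM or more with it. It had 104 FPKM in knockout and 48.7 FPKM in wild type cells given nicotine+LPS, 52.8 and 29.0 FPKM in knockout and wild type cells given LPS, 1.86 and 2.53 FPKM with nicotine, and 0.788 and 0.352 FPKM with vehicle. All 4 libraries with LPS lay above all 4 without it, and the highest value was 297 times the lowest. Within each genotype the order was the same, nicotine+LPS above LPS, LPS above nicotine and nicotine above vehicle. The ranges of the nicotine+LPS pair and the LPS pair overlapped, because knockout cells with LPS alone exceeded wild type cells with both agents. By rank, Il10 was within the top 3.66% of all genes in knockout and 7.17% in wild type cells given nicotine+LPS, against 43.9% and 47.3% with vehicle.

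**Figure D1:**
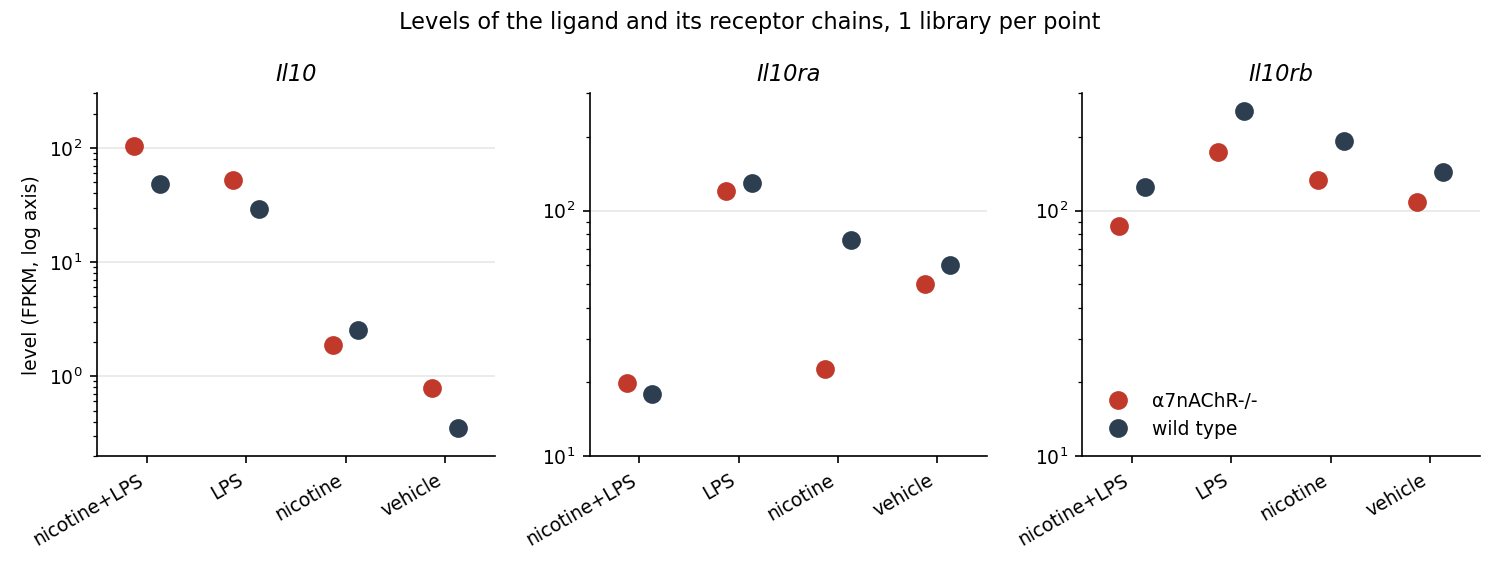
Levels of Il10, Il10ra and Il10rb in FPKM on log axes, 1 point per library, with knockout (α7nAChR-/-) left of wild type in each treatment. Il10 is highest with nicotine+LPS (104 and 48.7 FPKM), where Il10ra is lowest (19.8 and 17.8 FPKM), and Il10rb is lower in knockout than in wild type cells in every treatment.

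LPS without nicotine raised Il10 25.8-fold (log2 change 4.69 ± 0.32, SE, limma adjusted p = 0.000124), by 4.91 in knockout and 4.47 in wild type cells. On the plain FPKM scale these were ratios of 67.0 and 82.3. All 3 members rose with LPS as the table is scaled, where 32.7% of the genes tested rose and 26.4% fell, but with quantile scaling Il10ra lost its call and Il10rb changed sign. Of all LPS calls 55.4% were rises, and 45.2% with quantile scaling. With Il10 the call held under each of 18 alternatives, with log2 changes between 2.99 and 5.95.

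Il10 was also higher with nicotine than with its vehicle, with and without LPS. Under LPS it was 1.98 times as high with nicotine in knockout cells and 1.68 times as high in wild type cells in plain FPKM, a log2 change of 0.85 ± 0.32 that did not pass the test (adjusted p = 0.0588). It passed without the knockout nicotine (adjusted p = 0.0191) or the wild type nicotine library (adjusted p = 0.0190) and with quantile scaling (0.90, adjusted p = 0.0434). Without the knockout nicotine+LPS library the change was 0.47 (adjusted p = 0.361), without the wild type LPS library 0.63 (adjusted p = 0.245), and with no filter on low genes the adjusted p was 0.119. Without LPS, Il10 was 2.36 times as high with nicotine in knockout cells and 7.18 times as high in wild type cells in plain FPKM. On the FPKM + 1 scale nicotine alone raised it 2.04-fold (1.03 ± 0.32, adjusted p = 0.0310), where 30.1% of the genes tested rose and 26% fell. That call rests on levels of 2.53 FPKM or less, and it ended without the knockout vehicle (adjusted p = 0.133), wild type vehicle (adjusted p = 0.101) or wild type nicotine library (log2 change 0.49, adjusted p = 0.186). The difference between the nicotine effects with and without LPS was small against its error (-0.18 ± 0.45, adjusted p = 0.782). Its sign turned with a pseudocount of 5 (0.42) or without the wild type nicotine (0.36), wild type nicotine+LPS (0.20) or knockout LPS library (0.04). It was lower, at -0.98, with a pseudocount of 0.1 and at -0.72 without the knockout nicotine library. With a pseudocount of 0.1 the change with nicotine alone was 1.84, against 0.37 with 5, so both values depend on the pseudocount.

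Mast cells, B cells and dendritic cells can also produce IL-10, and their summed markers were higher with nicotine under LPS. The sum of 8 mast cell markers was 575 FPKM in knockout and 756 FPKM in wild type cells given nicotine+LPS, against 211 and 288 FPKM with LPS alone. Of the 8 markers 6 rose and 0 fell, where 26.9% of all genes tested rose and 28.6% fell. The sum of B cell markers was 403 and 337 FPKM with nicotine+LPS, against 289.8 and 222 FPKM with LPS alone, and 3 of 7 tested rose, 1 without either nicotine+LPS library. Of 6 T cell markers tested 4 rose, with sums of 17.2 and 18.4 FPKM with nicotine+LPS against 13.7 and 8.29 FPKM with LPS alone. Neutrophil markers went the other way, and the 2 tested both fell. Their sums were 88.9 and 46.1 FPKM with nicotine+LPS, 175 and 113 FPKM with LPS alone, and 107 and 34.2 FPKM with vehicle. With LPS alone, where Il10 gained most, the mast cell sums of 211 and 288 FPKM stood against 160.1 and 212 FPKM with vehicle. Of the 8 mast cell markers 5 rose and 0 fell with LPS alone, where 32.7% of all genes tested rose and 26.4% fell. That count was reached in none of the fits that left out a library. The sum of 7 dendritic cell markers was 124 FPKM in knockout and 93.9 FPKM in wild type cells with nicotine+LPS, 67.3 and 47.2 FPKM with LPS, 38.4 and 50.6 FPKM with nicotine, and 15.7 and 28.4 FPKM with vehicle, the same order of treatments within each genotype as for Il10 except that in wild type cells nicotine stood above LPS. Of 4 tested 1 rose with nicotine under LPS, Xcr1 (3.40), while Ccr7, named after its values were seen, which made up most of the sum in knockout cells, was at 0.53 (adjusted p = 0.0979). The part of these cells in the Il10 values was not tested, and in bulk RNA fewer cells of a type and less RNA per cell cannot be told apart.

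The ligand-binding chain Il10ra (chromosome 9, 45253837 to 45269149, minus strand) was lowest where its ligand was highest. It had 19.8 FPKM in knockout and 17.8 FPKM in wild type cells given nicotine+LPS, 120.4 and 129 FPKM with LPS, 22.7 and 75.6 FPKM with nicotine, and 50.2 and 59.9 FPKM with vehicle. The libraries with LPS alone were the highest, those with nicotine+LPS the lowest, and neither pair overlapped any other treatment. With nicotine under LPS the macrophage markers Fcgr1, Mertk and Cd14 fell too, while Csf1r rose. The median log2 change over all 8 macrophage markers was -0.11. Their sum was 20441 FPKM in knockout and 29547 FPKM in wild type cells with nicotine+LPS, against 28017 and 28332 FPKM with LPS alone. The part of these markers in the Il10ra values was not tested. The nicotine pair was the most discordant, since the knockout library lay below and the wild type library above both vehicle libraries. Nicotine alone left it 2.16-fold lower in knockout cells on the FPKM + 1 scale, where 13% of genes compared in those libraries were at least 2-fold lower, and 1.26-fold higher in wild type cells. Over both genotypes the change did not pass the test (-0.39 ± 0.41, adjusted p = 0.450).

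Under LPS, nicotine lowered Il10ra 6.37-fold (log2 change -2.67 ± 0.41, adjusted p = 0.00234), by 2.55 in knockout and 2.79 in wild type cells. Il10ra and Il10rb fell and Il10 did not pass, where 28.6% of the genes tested fell and 26.9% rose. Among the 10447 genes the change of Il10ra ranked 288 by size. Leaving out each library in turn kept the call, with log2 changes between -3.08 and -2.26 and adjusted p between 0.000864 and 0.0266. The nicotine effect under LPS minus that without LPS was -2.28 ± 0.59 (adjusted p = 0.0309), and 2 of 3 members had such a lower value, where 17.3% of the genes tested did and 12.8% had a higher one. This difference lost its call with quantile scaling (-1.48, adjusted p = 0.106). It also lost it without the knockout nicotine+LPS (adjusted p = 0.0558), wild type nicotine+LPS (0.117), knockout LPS (0.0655), knockout vehicle (0.0652) or wild type vehicle library (0.103). Of all calls for this difference 42.4% were higher values, and 55.4% with quantile scaling.

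LPS without nicotine left Il10ra 2.25-fold higher (1.17 ± 0.41, adjusted p = 0.0471), by 1.25 in knockout and 1.10 in wild type cells. The call was marginal and was lost in 13 of 18 alternatives, among them quantile scaling, which left a log2 change of 0.29 (adjusted p = 0.569). It ended without the knockout nicotine+LPS (adjusted p = 0.0560), wild type nicotine+LPS (0.0561), knockout LPS (0.191), wild type LPS (0.0728), knockout vehicle (0.105) or wild type vehicle library (0.196). With nicotine present, LPS did not accompany a higher Il10ra level. Knockout cells had 19.8 FPKM with nicotine+LPS against 22.7 FPKM with nicotine alone, and wild type cells had 17.8 against 75.6 FPKM. The annotation places a processed pseudogene and a microRNA gene inside Il10ra, and the library kit does not mark strand, so reads of the pseudogene, which lies on the opposite strand, could not be told from those of Il10ra.

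The shared chain Il10rb (chromosome 16, 91406164 to 91425834, plus strand) was the most abundant and least variable of the 3 genes. It had 86.1 FPKM in knockout and 125 FPKM in wild type cells given nicotine+LPS, 173 and 255 FPKM with LPS, 133 and 192 FPKM with nicotine, and 108 and 143 FPKM with vehicle. In each genotype LPS alone gave the highest and nicotine+LPS the lowest level. Across genotypes the nicotine+LPS pair lay below the LPS pair and the nicotine pair, and overlapped the vehicle pair. It stayed within the top 4.35% of all genes in each library.

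Nicotine under LPS lowered Il10rb 2.02-fold (-1.01 ± 0.12, adjusted p = 0.000908), with FPKM ratios of 0.497 in knockout and 0.488 in wild type cells, and the call held without any single library. Nicotine without LPS raised it 1.28-fold (0.36 ± 0.12, adjusted p = 0.0436), and the difference between those nicotine effects was -1.37 ± 0.17 (adjusted p = 0.00547, and -0.58 with adjusted p = 0.0506 under quantile scaling). The rise with nicotine alone turned to -0.14 (adjusted p = 0.363) with quantile scaling. It lost its call without the knockout nicotine+LPS (adjusted p = 0.0798), wild type nicotine+LPS (0.0809), knockout nicotine (0.160), wild type nicotine (0.193), knockout vehicle (0.0907) or wild type vehicle library (0.221). LPS without nicotine raised Il10rb 1.68-fold (0.75 ± 0.12, adjusted p = 0.00233) as the table is scaled by the authors, but with quantile scaling the change was -0.32 (adjusted p = 0.0615), so its direction depends on the scaling between libraries.

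**Figure D2:**
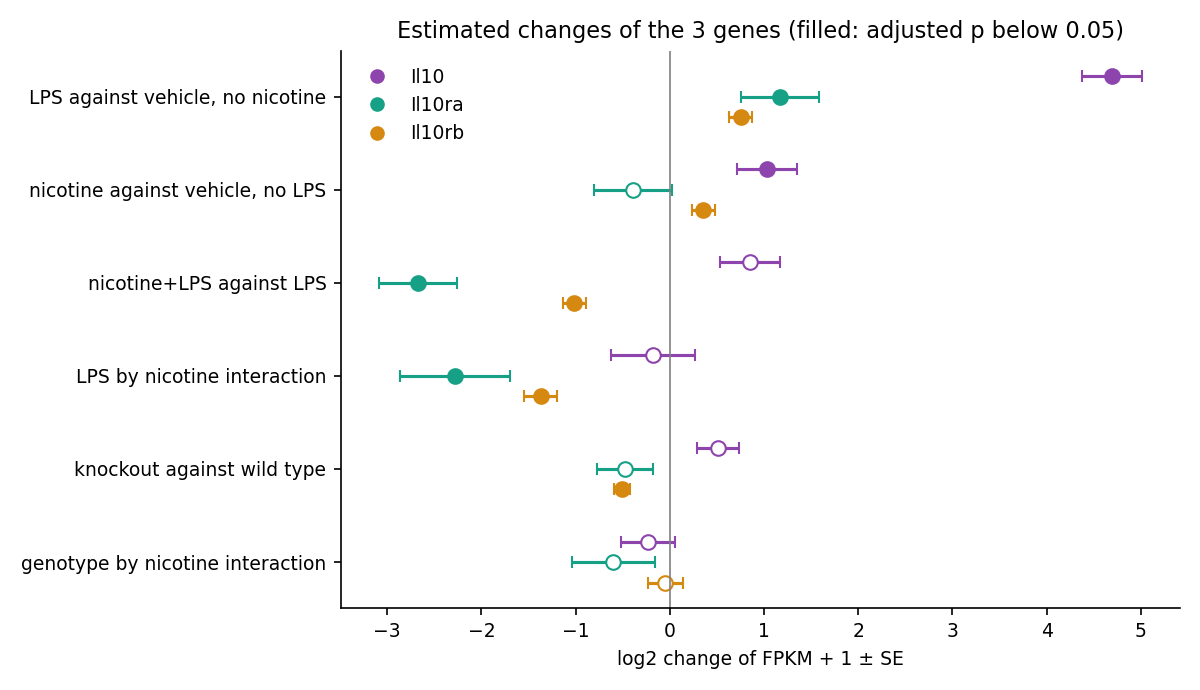
Estimated log2 changes of FPKM + 1 with standard errors for the 3 genes in each comparison, filled where the adjusted p is below 0.05. Under LPS, nicotine gave -2.67 for Il10ra and -1.01 for Il10rb, while Il10 stood at 0.85 without passing the test.

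Il10rb was lower in knockout than in wild type cells, 1.42-fold on average (-0.50 ± 0.09, adjusted p = 0.0231). Its plain FPKM ratio of knockout over wild type was 0.691 with nicotine+LPS, 0.678 with LPS, 0.690 with nicotine and 0.755 with vehicle, lower in 4 of 4 matched pairs. Of the genes tested 2.88% were called lower and 4.76% higher in knockout cells. The call ended without the knockout or wild type nicotine+LPS library (adjusted p = 0.114 and 0.115), the knockout or wild type nicotine library (0.112 and 0.112) or the knockout or wild type vehicle library (0.0673 and 0.0680). Over the fits without each library the change itself lay between -0.54 and -0.49. Mast cell markers were also lower in knockout cells, with 4 of 8 called (at most 3 in fits leaving out 1 library, and 0 without either nicotine or either nicotine+LPS library) and sums of 575 against 756 FPKM with nicotine+LPS, 211 against 288 with LPS, 301 against 395 with nicotine and 160.1 against 212 with vehicle, and their part in the Il10rb difference was not tested. The annotation also holds a protein-coding gene, Gm21970, that overlaps Il10rb on the same strand and is not among the genes of the table. Reads of that gene cannot be told from those of Il10rb.

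Il10 and Il10ra did not pass the test between genotypes (0.51 ± 0.22 with adjusted p = 0.211, and -0.48 ± 0.29 with adjusted p = 0.347). Il10 had higher FPKM in knockout than in wild type cells with nicotine+LPS (ratio 2.14), LPS (1.82) and vehicle (2.24), and lower FPKM with nicotine alone (0.737). With nicotine+LPS its ratio of FPKM + 1 was 2.12, and 4.67% of the genes compared in that pair of libraries were at least 2-fold higher in knockout cells. With nicotine alone Il10ra was 3.24-fold lower in knockout than in wild type cells on the same scale, and 2.44% of genes were at least 2-fold lower there. In the other 3 treatments its ratio of knockout over wild type FPKM lay between 0.838 and 1.11.

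Whether the nicotine effect differed between genotypes was tested for the average over LPS states, with 1 residual degree of freedom, which can resolve little. The difference, knockout minus wild type, was -0.23 ± 0.29 for Il10 (adjusted p = 0.862), -0.60 ± 0.44 for Il10ra (adjusted p = 0.776) and -0.05 ± 0.19 for Il10rb (adjusted p = 0.955). No gene of 10447 passed limma in this comparison (0%). Of the 10447 genes 634 had an unadjusted p below 0.05, which is not read as a difference between genotypes. Under LPS, nicotine moved each of the 3 genes the same way in knockout and wild type cells.

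The relation between ligand and receptor transcripts shifted over the treatments. Il10 over Il10ra, as a ratio of FPKM, was 5.28 in knockout and 2.73 in wild type cells given nicotine+LPS, 0.438 and 0.224 with LPS, 0.0822 and 0.0334 with nicotine, and 0.0157 and 0.00587 with vehicle. Ligand transcripts exceeded those of the ligand-binding chain in the nicotine+LPS libraries and in no other. Il10rb exceeded Il10ra in all 8 libraries, by 4.36 and 7.00 times with nicotine+LPS, 1.44 and 1.97 times with LPS, 5.86 and 2.54 times with nicotine, and 2.16 and 2.39 times with vehicle, knockout before wild type in each pair. The gap between the chains was smallest with LPS alone.

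**Figure D3:**
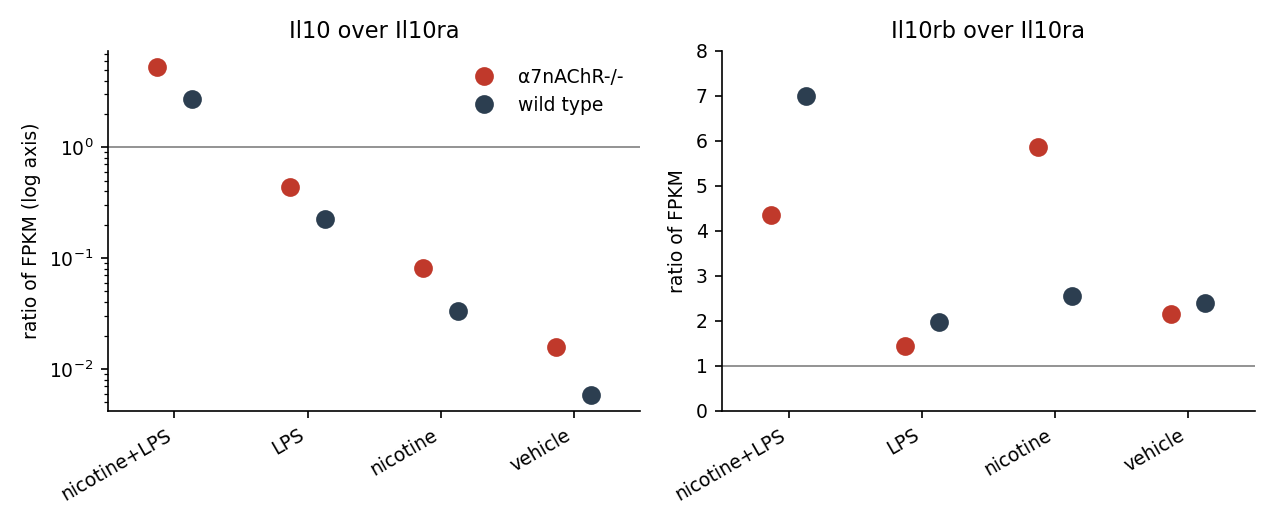
Ratios of FPKM in each library, Il10 over Il10ra (log axis) and Il10rb over Il10ra (linear axis), with a line at equal levels and knockout left of wild type. Il10 exceeds Il10ra with nicotine+LPS (5.28 and 2.73), and Il10rb exceeds Il10ra in every library.

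The kinases and transcription factor that act directly below the receptor did not move as one. Of 10 genes of receptor-proximal signalling, 2 rose and 6 fell with nicotine under LPS, with a median log2 change of -1.43 against -0.03 over all genes. Over all genes tested 26.9% rose and 28.6% fell. Tyk2, the kinase of the Il10rb chain, fell 3.15-fold (-1.66 ± 0.15, adjusted p = 0.000389), to 5.61 FPKM in knockout and 3.36 FPKM in wild type cells given nicotine+LPS, against 17.3 and 14.6 FPKM with LPS alone. It was 2.96-fold lower with nicotine in the absence of LPS too (adjusted p = 0.000533). Jak1, the kinase of the Il10ra chain, rose 1.32-fold (0.40 ± 0.12, adjusted p = 0.0283), a call that ended without any of the 4 libraries given LPS or either nicotine library. Stat3 fell 2.31-fold (-1.21 ± 0.24, adjusted p = 0.00576), to 90.4 and 51.1 FPKM against 210 and 120 FPKM with LPS alone, and lost its call without the wild type nicotine+LPS library.

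Socs3 fell most among these genes, 12.5-fold (-3.64 ± 0.29, adjusted p = 0.000292). It had 95.0 FPKM in knockout and 66.9 FPKM in wild type cells given nicotine+LPS, against 946 and 1073 FPKM with LPS alone, 23.7 and 32.7 FPKM with nicotine and 25.7 and 15.2 FPKM with vehicle. Inpp5d, the lipid phosphatase SHIP1, rose most (1.24 ± 0.31, adjusted p = 0.0146), to 24.8 and 30.1 FPKM against 12.8 and 9.48 FPKM, and lost its call without the knockout nicotine+LPS, wild type nicotine+LPS or wild type LPS library. With LPS alone 6 of the 10 rose and 1 fell (5 and 4 with quantile scaling), Socs3 most (5.60 ± 0.29) and Inpp5d downwards (-2.16 ± 0.31). With nicotine alone 2 rose, Stat3 (0.86 ± 0.24) and Jak1 (0.75 ± 0.12), and 3 fell, lowest Ptpn6, the phosphatase SHP-1 (-2.99 ± 0.18), while with quantile scaling 0 rose and 4 fell. Over all genes tested 32.7% rose and 26.4% fell with LPS alone, and 30.1% rose and 26% fell with nicotine alone. These shares also stand beside the counts of the lists below. Between genotypes Ptpn6 was higher in knockout cells (0.66 ± 0.13, adjusted p = 0.0307), a call that ended in 6 of the 8 fits that left out a library.

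Genes reported as targets of IL-10 and Stat3 in macrophages mostly fell with nicotine under LPS, in cells where Il10 transcripts were at their highest. Of 12 such genes 7 fell and 2 rose (median -0.80), where 28.6% of all genes tested fell and 26.9% rose. In both genotypes 9 of the 12 were lower. The count of falls was 4 without the wild type nicotine+LPS library and 5 with quantile scaling. Socs3, described above, fell most. Hmox1, encoding haem oxygenase, rose most, 5.09-fold (2.35 ± 0.43, adjusted p = 0.00444), to 2916 FPKM in knockout and 6180 FPKM in wild type cells given nicotine+LPS, against 872 and 796 FPKM with LPS alone. The other riser, looked up after the values were known, was Ddit4, an inhibitor of the growth kinase mTORC1 (0.78), a call that ended without the wild type nicotine+LPS library. With LPS alone 11 of 12 rose, led by Il1rn, the interleukin 1 receptor antagonist gene (5.74 ± 0.47, adjusted p = 0.000211), and 0 fell. With nicotine alone 7 rose, led by Hmox1 (3.27 ± 0.43), and 1 fell, the NF-kB inhibitor gene Tnip3 (-1.06). In 9 of the 12 the nicotine effect was lower under LPS than without it, where 17.3% of all genes tested had such a lower value. With quantile scaling 5 of the 12 did, and no fit that left out a library reached 9. Between genotypes Tnip3 was higher in knockout cells (0.67, adjusted p = 0.0105), a call that ended in 6 of the 8 fits without a library. These genes also respond to signals other than IL-10.

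Cytokines and enzymes that IL-10 is known to restrain were lower with nicotine under LPS. Of 17 such genes 12 fell and 0 rose, with a median log2 change of -3.06, where 28.6% of all genes tested fell and 26.9% rose. In both genotypes 15 were lower, while Il10 was higher in both without passing the test (limma adjusted p = 0.0588). Whether IL-10 had a part in these falls was not tested. The 5 of the 17 genes that did not pass, looked up after the values were known, were Tnf (-0.69), Cxcl1 (-0.12), Cxcl2 (0.37), Ccl4 (-1.36) and Ccl5 (-2.47). The largest fall was in Il27, a cytokine subunit gene (-7.48 ± 0.50, adjusted p = 0.0002), which had 6.41 FPKM in knockout and 0.506 FPKM in wild type cells given nicotine+LPS, against 673 and 530 FPKM with LPS alone. With LPS alone all 17 rose, Il6 most (11.62 ± 0.55). With nicotine alone 6 rose, led by the neutrophil attractant gene Cxcl2 (4.16 ± 0.63), and 1 fell, the interferon-inducible chemokine gene Cxcl10 (-2.18 ± 0.51). The count of risers was 3 without the wild type nicotine library and 4 with quantile scaling, and the fall of Cxcl10 was not called without the knockout nicotine library. Between genotypes 1 of the 17 was higher in knockout cells and 0 were lower, where 4.76% of all genes tested were higher and 2.88% lower. It was the growth factor gene Csf3 (0.92, adjusted p = 0.0160), a call that ended without either vehicle or either nicotine+LPS library. The median log2 change of the 17 was 0.91, against -0.01 over all genes.

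**Figure D4:**
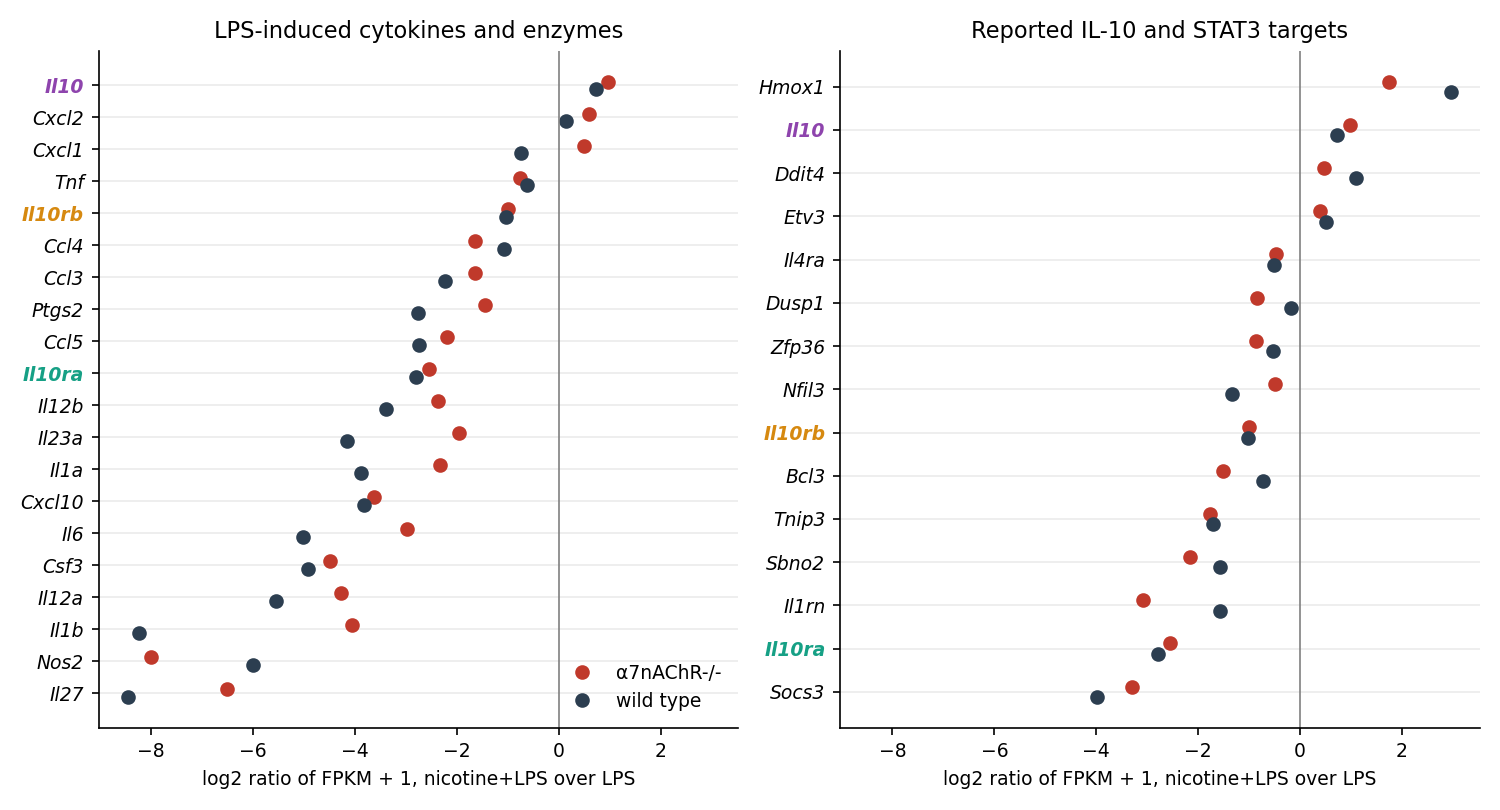
Log2 ratios of FPKM + 1, nicotine+LPS over LPS, in knockout and wild type cells for LPS-induced cytokines and enzymes (left) and reported IL-10 and Stat3 targets (right), with Il10, Il10ra and Il10rb in bold. Il10 lies right of 0 in both genotypes (0.97 and 0.73), where 15 of the 17 cytokine and enzyme genes lie left of 0 in both, and Il10ra (-2.55 and -2.79) lies among the strongly lowered genes.

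Regulators of Il10 itself showed no prevailing direction with nicotine under LPS. Of 32 transcription factors, kinases and RNA-binding proteins known to act on Il10 transcription or mRNA, 10 rose and 12 fell (median -0.11), while over all genes tested 26.9% rose and 28.6% fell, so the counts are not read as particular to these regulators. Counts of risers were between 4 and 8 without each library in turn, 4 without the knockout nicotine+LPS library, and counts of falls between 8 and 12. The lowest was Irf5, an interferon regulatory factor linked to inflammatory macrophages and repression of Il10 in human cells (-2.52 ± 0.21, adjusted p = 0.000308), followed by Maf, an activator of Il10 (-2.34 ± 0.36). Irf5 had 36.0 FPKM in knockout and 32.3 FPKM in wild type cells given nicotine+LPS, against 227 and 178 FPKM with LPS alone. Maf, named after its values were seen, had 8.69 and 8.36 FPKM against 72.7 and 30.3 FPKM. The largest rise was in Bhlhe40, a repressor of Il10 (1.61 ± 0.21, adjusted p = 0.00127), which had 133 and 166 FPKM against 47.6 and 48.6 FPKM.

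With LPS alone 19 of the 32 regulators rose and 3 fell, where 32.7% of all genes tested rose and 26.4% fell. Highest was the NF-kB subunit gene Nfkb1 (3.40 ± 0.15, adjusted p = 6.1e-05), and lowest the MAP kinase gene Mapk3 (-1.23 ± 0.15). With nicotine alone 18 rose and 6 fell, where 30.1% of all genes tested rose and 26% fell. Crem, a gene of cyclic AMP-responsive transcription factors, rose most (2.46 ± 0.43, adjusted p = 0.00385), with Mapk3 lowest again (-1.33 ± 0.15). The count of risers was 10 without the wild type nicotine library and 12 with quantile scaling, and the count of falls was 2 without the knockout nicotine or knockout vehicle library. Crem had 19.7 and 32.6 FPKM with nicotine, in knockout and wild type cells, against 4.02 FPKM or less with vehicle. Between genotypes 0 of 32 passed.

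On chromosome 1 the nearest cytokine gene to Il10 behaved differently from it. Il19, a family member 79730 bases away on the opposite strand, had 0.309 FPKM in knockout and 0.614 FPKM in wild type cells given nicotine+LPS, against 37.1 and 23.7 FPKM with LPS alone, and was listed at 0 with vehicle in both genotypes. It fell 21.1-fold with nicotine under LPS (-4.40 ± 0.24, adjusted p = 0.000132), while Il10 was 1.98 and 1.68 times as high. The next gene on that side, Il20, was listed at 0 in 7 of 8 libraries. On the other side Mapkapk2, a kinase that stabilises cytokine mRNAs and lies 28726 bases from Il10, rose with LPS (1.98 ± 0.31, adjusted p = 0.00219, and 0.84 with adjusted p = 0.0505 under quantile scaling). It did not pass with nicotine under LPS (-0.42 ± 0.31, adjusted p = 0.296). Dyrk3, beyond it, was at 1.06 FPKM or less. Near Il10ra the neighbours Tmprss4, BC049352, Tmprss13 and Fxyd6 were all under 1 FPKM.

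Il10rb lies in a cluster of cytokine receptor genes on chromosome 16, and its neighbours Ifnar2 and Ifnar1, the interferon alpha and beta receptor chains, and Ifngr2, an interferon gamma receptor chain, also fell with nicotine under LPS. Their log2 changes were -1.42 ± 0.18 for Ifnar2, -1.63 ± 0.22 for Ifnar1 and -1.49 ± 0.16 for Ifngr2 (adjusted p = 0.0012, 0.00143 and 0.000575), beside -1.01 for Il10rb. The genotype difference was not shared by these neighbours, for which the log2 change in knockout against wild type was 0.51 (adjusted p = 0.0681), -0.05 (0.874) and 0.12 (0.538), against -0.50 for Il10rb. The difference between these genotype effects was not tested. Ifnar2 ends 575 bases before Il10rb begins, on the same strand. By annotation Gm21970, which overlaps Il10rb, also overlaps the end of Ifnar2 on that strand. Its reads cannot be told from those of either gene.

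Among 16 other genes of the class II cytokine and receptor family 8 were expressed enough to be tested. With nicotine under LPS 6 of these fell and 0 rose (1 rose with quantile scaling), where 28.6% of all genes tested fell and 26.9% rose. Il19 fell most. With LPS alone 5 rose, F3, the tissue factor gene, most (5.05 ± 0.41, adjusted p = 0.000205), and Ifngr1 fell (-1.41). With quantile scaling 3 rose and 2 fell. With nicotine alone 3 fell, Ifngr1 most (-1.15), and 0 rose, and the count was 1 without the knockout nicotine, wild type nicotine or knockout vehicle library. Between genotypes 0 passed.

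The genes whose levels followed the members most closely over the 8 libraries were sought among 7207 genes averaging at least 5 FPKM, by Pearson's r on log2(FPKM + 1). These values describe libraries that share genotypes and treatments. For Il10 they were Cited2 (r = 0.994), Traf5 (0.983), Ereg (0.982), Hmgn5 (0.979) and Srgn (0.976). Cited2, a transcriptional coregulator gene, had 56.4 and 44.7 FPKM with nicotine+LPS, 43.3 and 30.2 FPKM with LPS, 14.6 and 17.7 FPKM with nicotine and 12.6 and 11.0 FPKM with vehicle, in knockout and wild type cells. For Il10ra they were Gmip (0.986), Ltbp1 (0.978), Adrbk1 (0.974), Cmpk1 (0.957) and Fut8 (0.945). For Il10rb they were Jag1 (0.945), Vamp3 (0.943), Tns3 (0.934), E2f3 (0.933) and Bcl7b (0.932). Il10 itself had r = -0.11 with Il10ra and -0.05 with Il10rb, while the receptor chains had r = 0.80 with each other.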

How the data were processed

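Poly(A) RNA of 8 cultures was sequenced with TruSeq v2 libraries, per the labels' protocols. The deposited table gives each gene's FPKM in each of 8 libraries, as the authors computed it; per the submitters' processing notes the tools were CASAVA 1.8, HISAT2, Cufflinks and Cuffdiff with build mm10. How libraries were scaled to each other, which annotation was used and any filters are not stated in the labels. Depth in counts is unknown: the commonest ratio between low values of a library and of wild type vehicle covered only 17.7% to 21.2% of low genes, too few to recover reads, so no interval or floor is given. The table had 24341 lines, and of 2 symbols listed more than once the more abundant entry was used.

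Values were tested as log2(FPKM + 1) with limma 3.58.1 in R 4.3.3, with a trend on expression, in a model of genotype and the 4 treatments over all 8 libraries. This keeps nicotine effects with and without LPS apart. The genotype by nicotine term came from a model with each pair of factors. The fit was also run on simulated data with independent noise and no differences between genotypes. That run cannot show how far the p-values hold in these libraries. Pairs of single libraries got no test; they were compared at 2-fold of FPKM + 1 with at least 5 FPKM in either library. Positions come from GENCODE M21 on GRCm38. Ratios, counts and plots were made in Python 3.11.15 (Matplotlib 3.10.9, pandas 2.3.3, SciPy 1.17.1, NumPy 2.4.6). Alternatives were other pseudocounts (0.1 and 5), filters, scalings and models, and leaving out each library.

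The members, gene lists and tests were chosen with earlier results of these data known. Named genes were the members, the largest rise and fall of each list, Jak1, Tyk2, Stat3, Socs3 and Mapkapk2, 2 protein-coding neighbours on either side of each member, and the 5 genes most like each member; others are said to be named after their values were seen. Planned searches of promoter and protein sequence are not reported here. The values of 1 gene of the receptor-proximal list are not reported here.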

Additional observations from a re-analysis of the deposited data

Results flagged for a closer look

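For Il10ra and Il10rb the effect of nicotine under LPS differed from that without LPS by a test of the difference itself (log2 -2.28 and -1.37, limma adjusted p = 0.0309 and 0.00547). Both calls were lost with quantile scaling (-1.48 and -0.58, limma adjusted p = 0.106 and 0.0506) and without a genotype term. That of Il10ra was also lost in some fits that left out a library.

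Nicotine without LPS moved Il10ra in opposite directions in the genotypes, by -1.11 in knockout and 0.33 in wild type cells (log2 of FPKM + 1). There was 1 pair of libraries per genotype, and this difference was not tested.

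The sign of the knockout effect differed between treatments for Il10 (1.09 with nicotine+LPS, 0.84 with LPS, -0.30 with nicotine and 0.40 with vehicle) and for Il10ra (0.14, -0.10, -1.69 and -0.25 in the same order). These differences were not tested.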

How the results depend on the processing

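Directions of the calls for Il10 with LPS, and for Il10ra and Il10rb with nicotine under LPS, were kept under all 18 alternatives, and the first held its call in each. Quantile scaling turned Il10rb with LPS to -0.32, with nicotine to -0.14, and its genotype by nicotine difference to 0.082. It gave 0.29 for Il10ra with LPS, 0.90 for Il10 with nicotine under LPS, and -1.48 for Il10ra and -0.58 for Il10rb in the difference between nicotine effects. Median centring gave 1.10 for Il10ra with LPS and 0.32 for Il10rb with nicotine. With a pseudocount of 5, Il10 stood at 0.37 with nicotine, 0.42 in the difference between nicotine effects and 0.0070 in the genotype by nicotine difference. With 0.1, Il10 stood at 1.84, -0.98 and -0.58 in the same order, and Il10ra at 1.18 with LPS.

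Without a genotype term calls were lost with values unmoved, for Il10 with nicotine (1.03), Il10ra with LPS (1.17), Il10rb with LPS (0.75) and nicotine (0.36), and the difference between nicotine effects of Il10ra (-2.28) and Il10rb (-1.37), of which 1588 genes then passed against 3143. With no filter on low genes the same held for Il10 with nicotine (1.03) and for Il10ra with LPS (1.17) and in that difference (-2.28), and genes differing by genotype numbered 271 against 798. A filter at 5 FPKM left Il10ra with LPS at 1.17 and no mean trend left Il10rb with nicotine at 0.36, each without its call. The additive model averages each agent over the other, so it estimates another quantity. It gave 0.94 for Il10 with nicotine, -1.53 for Il10ra and -0.33 for Il10rb with nicotine, 0.032 for Il10ra and 0.065 for Il10rb with LPS, and -0.50 without a call for Il10rb by genotype, with 2824 genes called for LPS against 6172 and 115 for genotype.

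Without each library in turn, Il10 ranged from 0.49 to 1.57 with nicotine, 0.47 to 1.24 with nicotine under LPS and -0.72 to 0.36 in the difference between nicotine effects. Il10ra ranged from 0.92 to 1.42 with LPS, -1.20 to 0.42 with nicotine and -3.09 to -1.47 in that difference. Il10rb ranged from 0.29 to 0.42 with nicotine and from -0.54 to -0.49 by genotype. Counts of genes called ranged from 4184 to 5974 for LPS, 3793 to 6461 for nicotine, 3700 to 5564 for nicotine under LPS, 1035 to 3706 for the difference between nicotine effects and 155 to 1120 for genotype. Where a call was lost, the cause was not tested. A lone library left in a treatment is assumed to vary like the others, and the genotype by nicotine fit could not be made without a library. The genotype term already sets each treatment effect within a genotype. No paired analysis was possible because the labels carry no replicate numbers that could pair libraries in another way.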

Other observations

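Xcr1, a chemokine receptor gene typical of a class of dendritic cells, stood out among the markers of other cells. It had 18.4 FPKM in knockout and 27.3 FPKM in wild type cells given nicotine+LPS, against 1.31 and 1.14 FPKM with LPS alone, 1.97 and 2.48 FPKM with nicotine, and 0.140 and 0.0725 FPKM with vehicle. It rose with nicotine under LPS (log2 change 3.40, limma adjusted p = 0.000176), while Clec9a and Flt3, other markers of those cells, were at 1.39 FPKM or less in each library. Xcr1 was named after its values were seen.

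Cd209a, also listed as a dendritic cell marker, had 0 to 0.156 FPKM in the knockout libraries, against 7.86 to 19.8 FPKM in the wild type libraries, in all 4 treatments (log2 change -3.85, adjusted p = 0.000384). The groups did not overlap. Cd209a was named after its values were seen.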
